A study of Mus musculus with 6 samples.

Results

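Inguinal adipose tissue (iAT) of mice at postnatal day 6 was sequenced from 3 wild-type (WT) samples and 3 samples lacking the neuropeptide FF receptor 1 gene *Npffr1* (Npffr1-KO), and the transcript levels of the RFamide and neuropeptide Y (NPY) peptides and receptors are described here. The mice were kept under specific pathogen free conditions and the labels name no treatment. The methods of the study describe its mice as male C57BL/6 and do not name the Npffr1-KO line, so which exon was deleted, in which cells, and on which background is not given in the sources used here. Nothing in the labels says whether the 3 samples of a genotype came from 3 separate animals, so p-values measure the spread between these samples.

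The genes were chosen by name: the deleted receptor, its paralogue *Npffr2*, their ligand genes *Npff* and *Npvf*, the related receptors *Prlhr*, *Qrfpr* and *Kiss1r*, and *Npy* with its receptors *Npy1r* and *Npy2r*. Of these 10 genes, 7 were among the 19831 genes of the deposited table. *Npffr2*, *Prlhr* and *Qrfpr* were absent from it, so no value can be given for them. Of the 7 listed genes, *Npffr1*, *Npvf* and *Npy* had 6, 8 and 1 reads in all 6 libraries together, *Npy2r* had 42, and *Kiss1r*, *Npff* and *Npy1r* had 270, 488 and 1400.

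RFamide peptides are neuropeptides that end in arginine and an amidated phenylalanine. They are cut from larger precursors, and the amide comes from a glycine that follows the last residue in the precursor and is processed by the enzyme encoded by *Pam*. NPFFR1 binds the peptides of the *Npvf* and *Npff* precursors and couples to inhibitory G proteins, while kisspeptin receptor couples to the Gq class. NPY and its relatives end in arginine and an amidated tyrosine instead, and NPY is known as a co-transmitter of sympathetic nerves that acts in adipose tissue on the Y1 and Y2 receptors, the products of *Npy1r* and *Npy2r*.

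The shared ending can be read in the genes themselves. Shown are the coding stretches around the amidated end of the peptides, 30 bases each, 5' to 3', from GENCODE M21 transcripts on mouse build GRCm38, with the codons of Arg-Phe-Gly (or Arg-Tyr-Gly) in capitals and the following Arg or Lys codon, a cleavage site, at the end.
Npff, first: ttcctgtttcagccccagAGGTTTGGCaga
Npff, second: agcctggccgctcctcagCGCTTTGGGaag
Npvf, first: gcagccaacctgcccctgAGATTTGGAagg
Npvf, second: ttccccagcctgccccaaAGGTTTGGGaga
Qrfp: aagggaggcttcagcttcCGCTTTGGAcgg
Prlh: gggatcaggcctgtgggcCGCTTCGGGagg
Kiss1: tggaactccttcggcctgCGCTACGGCagg
Npy: aatctcatcaccagacagAGATATGGCaag

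The stretches are shown because the sequence sorts the ligands into those ending in phenylalanine and those ending in tyrosine. *Npff* and *Npvf*, the ligand genes of the deleted receptor, each held 2 Arg-Phe-Gly sites, and *Qrfp* and *Prlh* held 1 each. In *Kiss1* and *Npy* the codon between arginine and glycine was for tyrosine. The second *Npff* stretch lies at chr15:102523933-102523962 on the minus strand, while the first crosses an intron between 102524020 and 102524151. Those of *Npvf* lie at chr6:50652721-50652750 and chr6:50652628-50652657, also on the minus strand, and that of *Npy* crosses an intron on chromosome 6 between 49823766 and 49827498 on the plus strand. The other stretches lie at chr2:31808547-31808576 on the minus strand for *Qrfp*, and at chr1:90953884-90953913 for *Prlh* and chr1:133329586-133329615 for *Kiss1*, both on the plus strand.

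The deposited table holds 1 value for WT and 1 for Npffr1-KO per gene, made from read counts normalized for library size, and neither is the plain mean of its libraries. Whole reads of each of the 6 libraries were worked out from these values wherever the mean was at most 50, where a single combination of reads matched. This was the case for *Npffr1*, *Npvf*, *Kiss1r*, *Npy* and *Npy2r*. Above that limit, only combinations near the deposited values of each genotype were searched. Among these, the reads of *Npff* were given by a single combination and those of *Npy1r* by 1 of 36 combinations. For *Npy1r* the leading one had a posterior probability of 0.831 and the next one 0.161. The libraries are called a, b and c within a genotype, since they could not be tied to sample numbers, and a normalized read count is the reads divided by the size factor of the library, which lay between 0.916 and 1.04. The authors' values of all genes summed to 23137343 in WT and 23640005 in Npffr1-KO.

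The labelled tissue was checked with its markers. All 6 adipocyte markers were listed, with authors' values of 156285 in WT and 173188 in Npffr1-KO for *Fabp4*, a fatty acid binding protein, and 136814 and 146170 for *Lpl*, lipoprotein lipase. Of the sympathetic neuron markers, *Th* and *Dbh*, the enzymes that make noradrenaline, were not among the listed genes. The listed markers included *Slc18a2*, the vesicular monoamine transporter, with authors' values of 164 and 109, and *Prph*, an intermediate filament of peripheral neurons, with 97.4 and 112. Npffr1-KO a stood apart by *Ckm*, muscle creatine kinase, which was named after its values were seen and had 215 reads there against 1 to 6 in the other 5 libraries.

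*Npffr1*, the deleted gene, was barely detected in WT iAT and not detected in Npffr1-KO iAT. The authors' values were 1.12 in WT and 0.855 in Npffr1-KO, neither being the plain mean of its libraries. The reads worked out from both values together were 1, 0 and 5 in WT a, b and c. They were 0 in each of the 3 Npffr1-KO libraries, although the authors' Npffr1-KO value was not 0. The reads were thus found in 2 of 3 WT libraries, and library b of WT was at the same level as the Npffr1-KO libraries. The mean was 1.98 ± 2.63 normalized read counts in WT (SD, n = 3). A count of 0 over the Npffr1-KO group allows up to 3 reads, a mean of 1.02 normalized counts per library. Since 5 of the 6 WT reads were in WT c, no fold is given. An exact two-sided permutation test gave p = 0.4, where 3 libraries against 3 cannot go below 0.1. The labels are therefore not contradicted, but at this depth 6 reads are a weak check of them. The gene lies on chromosome 10 from 61595492 to 61628565 on the plus strand in GENCODE M21.

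*Npff*, the gene of the precursor of neuropeptide FF, was the best expressed ligand gene. Its reads were 113, 77 and 88 in WT a, b and c, against 72, 66 and 72 in Npffr1-KO. Normalized, these were 109, 75.4 and 87.3 in WT and 69.4, 66.6 and 78.6 in Npffr1-KO, so that WT b lay below the highest Npffr1-KO library and the genotypes overlapped. The means were 90.6 ± 17.1 in WT and 71.5 ± 6.26 in Npffr1-KO (SD, n = 3 each). The difference did not pass the test (log2 difference -0.32, SE 0.24, adjusted p = 0.631 by limma with Benjamini-Hochberg adjustment over 7989 genes), and without Npffr1-KO a it was -0.30 (adjusted p = 0.729). *Npff* is a minus strand gene of chromosome 15, spanning 102523839 to 102524942, and 327 of its 1002 annotated exonic bases, 32.6%, are also exonic in Gm28047, a longer gene on the same strand that is not listed in the deposited table. Reads in these bases cannot be assigned to either gene with certainty.

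*Npvf*, whose precursor holds the preferred ligands of NPFFR1, was near the limit of detection. The WT libraries had 0, 7 and 0 reads and the Npffr1-KO libraries 1, 0 and 0. All 7 WT reads were in library b, and the other 4 libraries besides Npffr1-KO a had none. The means were 2.28 ± 3.96 and 0.321 ± 0.556 normalized read counts (SD, n = 3 each). limma gave a log2 difference of -0.67 (SE 0.94, adjusted p = 0.906), and without WT b the sign turned to 0.32 (adjusted p = 0.982).

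*Kiss1r*, the receptor of kisspeptin, was detected in every library. The reads were 58, 53 and 42 in WT and 25, 62 and 30 in Npffr1-KO, which correspond to 56.0, 51.9 and 41.7 and to 24.1, 62.6 and 32.7 normalized read counts. Npffr1-KO b was the highest of all 6 libraries, while Npffr1-KO a and c were the lowest. The means were 49.9 ± 7.38 and 39.8 ± 20.2 (SD, n = 3 each), and the difference was within this spread (log2 difference -0.42, SE 0.33, adjusted p = 0.773 by limma). Without Npffr1-KO a it was -0.12 (adjusted p = 0.947). Of 3856 annotated exonic bases of *Kiss1r*, 247 are also exonic in *R3hdm4* on the other strand, and no source says whether strand was used in counting. The gene of its ligand, *Kiss1*, was absent from the table.

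**Figure D1:**
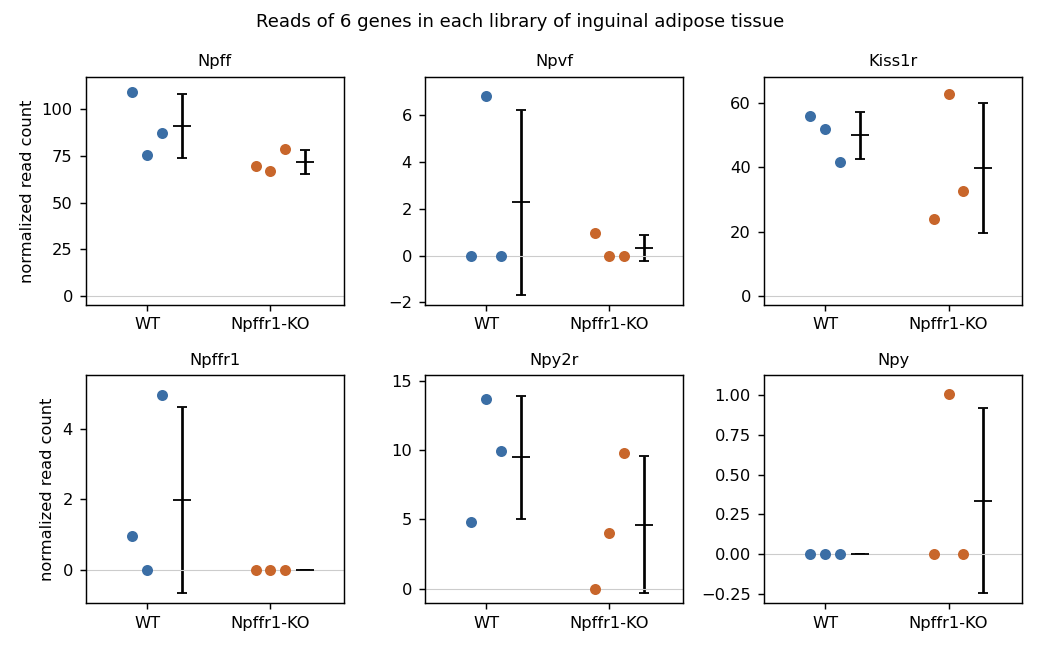
Normalized read counts (y axis, a scale of its own in each panel) of 6 genes in the 3 WT and 3 Npffr1-KO libraries, 1 point per library in the order a, b, c, with the mean and SD beside them. WT and Npffr1-KO points overlap for *Npff*, *Npvf*, *Kiss1r*, *Npy2r* and *Npy*, and *Npffr1* is at 0 in the 3 Npffr1-KO libraries and in WT b.

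*Npy* itself was represented by a single read, in Npffr1-KO b, and by 0 reads in the other 5 libraries. The count of 0 in the WT group allows up to 3 reads over it. *Npy* transcript was therefore not detectable above a few reads at this depth in either genotype, and no difference could be tested.

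*Npy1r*, the gene of the Y1 receptor, was the receptor gene with the highest level among those listed, and its transcript level was lower in Npffr1-KO. The authors' values were 292 in WT and 173 in Npffr1-KO. In the leading combination the reads were 251, 349 and 301 in WT and 142, 176 and 181 in Npffr1-KO, which correspond to 242, 342 and 299 and to 137, 178 and 197 normalized read counts. In the second combination the normalized read counts were 303, 268 and 308 in WT and 209, 149 and 157 in Npffr1-KO. In both of these combinations every WT library lay above every Npffr1-KO library, which was also the case for 10% of the 7989 genes with a mean of 1 to 400. The combinations share a posterior probability of 0.992, while at lower ranks, such as the third with a posterior of 0.00623, the genotypes overlapped. Only combinations with a ratio near that of the deposited values were kept, and they were ranked by a typical spread within a genotype. The direction and approximate size of the difference are therefore those of the deposited values. The spread may be understated, and the p-values with it.

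The mean of *Npy1r* was 294 ± 49.8 normalized read counts in WT and 171 ± 30.9 in Npffr1-KO (SD, n = 3 each) in the leading combination, and 293 ± 21.6 and 172 ± 32.5 in the second. limma gave a log2 difference of -0.78 (SE 0.16, adjusted p = 0.0175 over 7989 genes), a 1.72-fold lower level, and the second combination gave -0.78 (adjusted p = 0.0121). Both combinations were held to the same deposited ratio, so their like differences are not separate support. The exact two-sided permutation test gave p = 0.1 for both, the smallest that 3 against 3 allows. In this fit 87 genes passed the threshold of 0.05, 1.09% of those tested, and 48 of them, 0.601%, were lower in Npffr1-KO. *Npy1r* lost the call when any 1 library was left out, while the calls over all 7989 genes fell from 87 to between 6 and 26. Its log2 differences then ran from -0.92 without WT a to -0.63 without Npffr1-KO a. The adjusted p-values of limma for *Npy1r* ran from 0.0912 without WT a to 0.329 without WT b.

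Markers of other cell types also differed in the authors' values. All 4 endothelial markers were lower in Npffr1-KO, with a sum of 51024 in WT and 40211 in Npffr1-KO, and with values of 23029 and 17863 for *Cdh5*, the endothelial cadherin, and 18487 and 15218 for *Pecam1*. The 5 smooth muscle and pericyte markers were also lower, with sums of 42017 and 36314, among them *Rgs5* with 15562 and 13645 and *Acta2*, smooth muscle actin, with 10408 and 9588. Adipocyte markers were higher for 5 of 6, with sums of 361602 and 390723. Of the 4 skeletal muscle markers 3 were higher in Npffr1-KO, *Acta1* with 171 and 410 and *Tnnt3* with 90.5 and 152 being the most abundant. These 2 have no reads per library here. The third, *Ckm*, had 215, 1 and 6 reads in Npffr1-KO a, b and c, so its higher value rests on Npffr1-KO a. In bulk tissue fewer cells of a type and less RNA per cell cannot be told apart, and the part of these markers in the lower *Npy1r* level was not tested. Without Npffr1-KO a, the library with the *Ckm* reads, the *Npy1r* difference was -0.63 (adjusted p = 0.156).

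Macrophage markers were higher for 4 of 6 in Npffr1-KO, with sums of 17403 and 20351, the most abundant being *Lyz2*, lysozyme, with 9262 and 11951, while *Csf1r*, the receptor of the macrophage growth factor, had 4594 and 4379. All 5 T and B cell markers were higher, with sums of 8337 and 11195, the most abundant being *Cd79a* with 3383 and 4250 and *Lck* with 1675 and 2798. The marker sums have 1 value per genotype and no error.

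**Figure D2:**
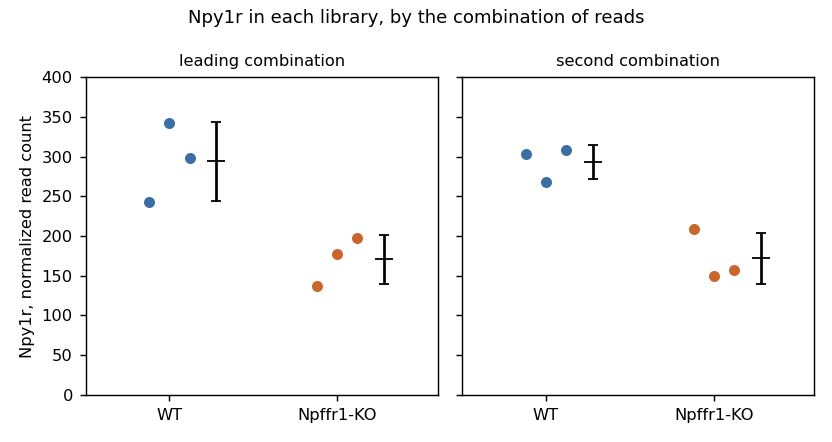
Normalized read counts of *Npy1r* (y axis, from 0) in the 3 WT and 3 Npffr1-KO libraries under the leading combination of whole reads (left) and the second (right), 1 point per library in the order a, b, c, with the mean and SD. The lowest WT library is at 242 and 268 and the highest Npffr1-KO library at 197 and 209, so the genotypes do not overlap in either panel.

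*Npy1r* lies on chromosome 8 from 66697192 to 66706792 on the plus strand, and *Npy5r*, the gene of the Y5 receptor, lies 9064 bases away on the minus strand. The neighbour was close to the limit of detection, with 0, 3 and 0 reads in WT and 0, 1 and 0 in Npffr1-KO.

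*Npy2r*, the gene of the Y2 receptor, had 5, 14 and 10 reads in WT and 0, 4 and 9 in Npffr1-KO. Normalized, these were 4.83, 13.7 and 9.92 against 0, 4.04 and 9.82, and only Npffr1-KO a had none. The highest Npffr1-KO library lay above the lowest WT library. The means were 9.49 ± 4.45 and 4.62 ± 4.94 (SD, n = 3 each), and the difference did not pass the test (log2 difference -1.37, SE 0.77, adjusted p = 0.654 by limma). Without Npffr1-KO a, the library with no *Npy2r* read, the log2 difference was -0.41 (adjusted p = 0.912).

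In the fit over genes with a mean of 1 to 50, *Npvf*, *Kiss1r* and *Npy2r* were tested and 0 passed, beside 1 of 4717 genes in all, 0.0212%, which was the predicted gene Gm3317, with 0 reads in WT and a mean of 47.2 normalized read counts in Npffr1-KO. At an unadjusted p under 0.05 by limma there were 408 of these 4717 genes. None of the 3 tested members of the families named here was among them, too few to set apart from that share. In the fit with means of up to 400, 5 of the 10 were tested and *Npy1r*, by its leading combination, alone passed. In that fit 87 of 7989 genes passed in all, 1.09%. The other 2 listed genes, *Npffr1* and *Npy*, had means under 1 normalized count and were not tested.

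Per gene length, the levels fell over a wide range. Using the gene lengths of the deposited table, the WT libraries had 167 to 242 normalized read counts per kb for *Npff* and 80.6 to 114 for *Npy1r*. *Kiss1r* followed with 13.2 to 17.7 per kb. With these lengths the 3 genes did not overlap with each other over the WT libraries. The place of *Npff* above *Npy1r* rests on its deposited length of 451 bases: over its 1002 annotated exonic bases the WT libraries would have 75.2 to 109 per kb, which overlaps with *Npy1r*. *Npvf* with 0 to 12.1, *Npy2r* with 1.598 to 4.54 and *Npffr1* with 0 to 3.797 per kb overlapped and have no order among themselves, and *Npy* was at 0 in WT. In Npffr1-KO, *Npff* had 148 to 174 per kb, *Npy1r* 45.5 to 65.7 and *Kiss1r* 7.62 to 19.8, in the same order and again without overlap between them at the deposited lengths.

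**Figure D3:**
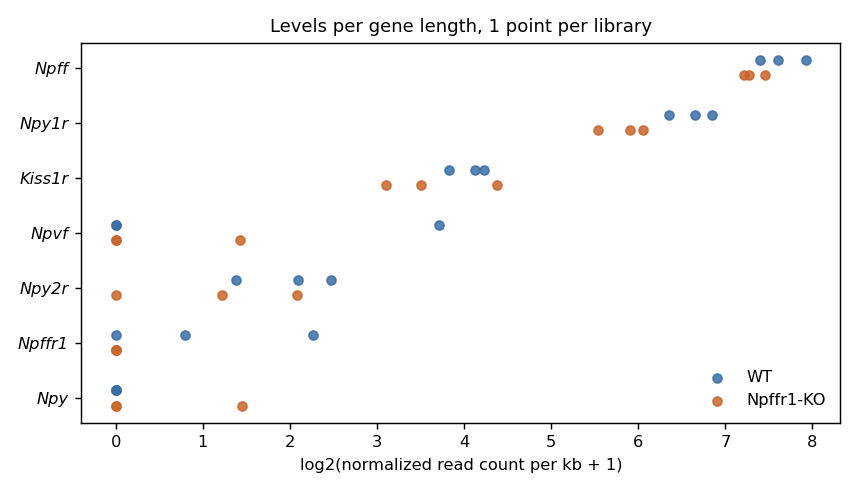
Levels per gene length, as log2(normalized read count per kb + 1) on the x axis, of the 7 listed genes, with 1 point per library and WT above Npffr1-KO in each row. At the deposited lengths *Npff*, *Npy1r* and *Kiss1r* lie apart from each other in WT, and each of the other 4 genes has at least 1 library at 0.

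The genes with the most similar pattern to a member over the 6 libraries were sought among 2078 genes with a mean of 10 to 50. For *Npff* these were Gm6297, *Jakmip3* and *Fer1l5* with Pearson's r of 0.961, 0.9502 and 0.949. For *Kiss1r* they were Gm9926, 2610027K06Rik and *Nap1l3* with 0.981, 0.968 and 0.966. With 6 libraries that share depth and tissue makeup, these values describe the libraries only.

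Of 9 further genes of the families, *Kiss1*, *Pyy* and *Qrfprl* were absent from the table, and *Prlh*, *Ppy*, *Npy4r* and *Npy5r* had 1, 3, 1 and 4 reads in all libraries. *Qrfp*, the precursor of the RFamide peptide QRFP, was the only one with more than 30 reads, with 39, 24 and 44 in WT and 57, 45 and 39 in Npffr1-KO. Its highest WT library, at 43.7 normalized read counts, lay above the lowest Npffr1-KO library at 42.6. limma gave 0.47 (SE 0.32, adjusted p = 0.713). *Npy6r* had 1, 2 and 10 reads in WT and 7, 1 and 8 in Npffr1-KO (log2 difference 0.42, SE 0.81, adjusted p = 0.936). Thus 2 of the 9 were tested and 0 passed in either direction, with a median log2 difference of 0.45 beside -0.07 over all genes tested.

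The 11 genes of peptide maturation and clearance were all listed. The ubiquitous enzymes were abundant: the authors' values were 2955 in WT and 2440 in Npffr1-KO for *Pam*, the amidating enzyme, and 3559 and 2756 for *Cpe*, carboxypeptidase E, which trims basic residues. They were 608 and 513 for *Qpct*, the glutaminyl cyclase. The peptidase genes *Dpp4* and *Mme* (neprilysin), which break down peptides outside the cell, had 1323 and 1334 and 948 and 1368. These 5 genes have 1 value per genotype and no reads per library here, so they were not tested. The genes typical of neuroendocrine cells were low. *Pcsk1* and *Pcsk2*, the prohormone convertases, had 25 and 55 reads over the 6 libraries, and *Pcsk1n*, which encodes an inhibitor of PCSK1, had 22. The granule genes *Chga*, *Chgb* and *Scg5* had 45, 25 and 36.

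Of these 6 low genes 0 passed in either direction, with a median log2 difference of -0.30. *Scg5* had the largest value, 1.20 (SE 0.76, adjusted p = 0.695), with 0, 6 and 7 reads in WT and 8, 9 and 6 in Npffr1-KO. *Pcsk1n* had -1.06 (SE 0.74, adjusted p = 0.726), with 4, 7 and 5 reads in WT and 1, 2 and 3 in Npffr1-KO. The *Pcsk1n* genotypes did not overlap, as for 13.2% of the 4717 genes tested. *Chga* had 0.92 (SE 0.60, adjusted p = 0.704), *Pcsk2* -0.63 (SE 0.59, adjusted p = 0.821), *Pcsk1* -0.36 (SE 0.85, adjusted p = 0.948) and *Chgb* -0.25 (SE 0.71, adjusted p = 0.962).

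The 7 genes of G protein alpha subunits through which these receptors signal were also listed. *Gnai2*, of the inhibitory class, had the highest authors' value with 23907 in WT and 24415 in Npffr1-KO. *Gnai1* had 3223 and 2418, *Gnai3* 2329 and 2156, and *Gnao1* 261 and 334, its mean being within the range searched but its combination of reads not certain enough to be used. *Gnaq* and *Gna11*, of the Gq class, had 2479 and 2178 and 2931 and 2752. Reads per library were determined for *Gnaz*, an inhibitory subunit, alone, with 28, 41 and 22 in WT and 12, 16 and 25 in Npffr1-KO. The genotypes overlapped and the difference did not pass (log2 difference -0.70, SE 0.41, adjusted p = 0.670 by limma).

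**Figure D4:**
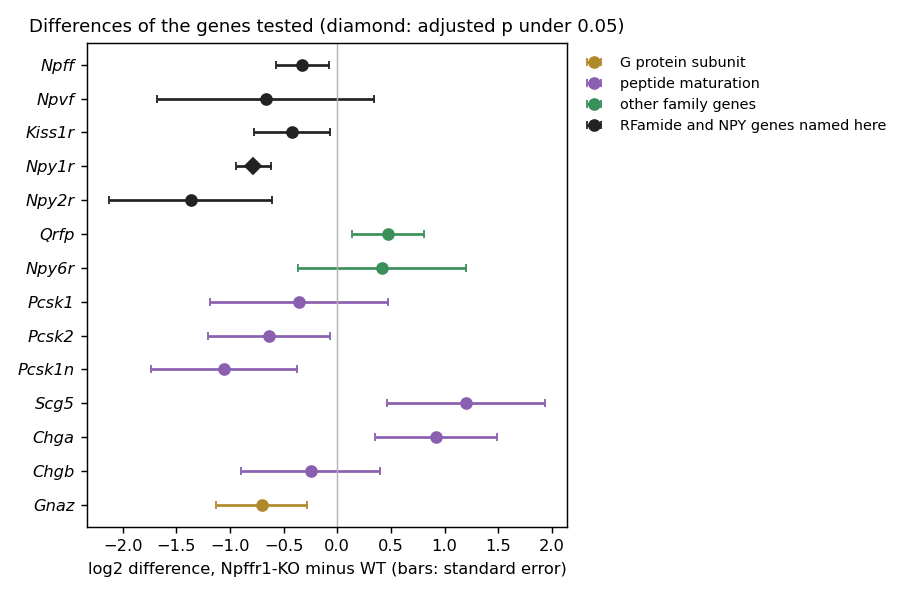
Log2 difference, Npffr1-KO minus WT, of log2(normalized read count + 1) with its standard error for the 14 tested genes of the receptor and peptide families, peptide maturation and G protein subunits, from the fit over genes with means of 1 to 400. *Npy1r* at -0.78 is the only diamond, with an adjusted p of 0.0175 by limma and a standard error of 0.16, beside one of 1.01 for *Npvf*. The *Npy1r* value rests on the leading of 36 combinations of reads, with a posterior of 0.831, and its spread may be understated.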

How the data were processed

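RNA of iAT from 3 WT and 3 Npffr1-KO mouse samples was sequenced. The labels' processing notes name Bowtie2, RSEM and DESeq2, without versions, and the genome build is not given in the sources used here. The authors deposited, for 19831 genes, a signal of normalized read counts with 1 value per genotype, the gene length, and log2 fold changes and p-values of their own comparison, which were not used. A second deposited table repeats rows of the first.

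The mean of the 2 values is the mean of 6 normalized counts. Genes with 1 read fall on 6 values, which give each library's size factor and genotype. For means of up to 50, nearly all combinations of whole reads were then searched by lattice reduction within 2.5 rounding errors. Of 6601 genes with a mean of up to 50, 6600 had exactly 1 combination and 1 had none. RSEM estimates were treated as rounded. From 50 to 400, the search was limited to combinations near the deposited values of each genotype and near their ratio. A gene was used there where the most likely combination had a posterior of at least 0.99, given a typical spread (3271 of 4210 genes). The choice may favour genes of low spread. *Npy1r* did not reach 0.99 and was added by its leading combination. This extension was chosen after seeing the data.

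Reads divided by size factor were tested as log2(value + 1) with limma (version 3.58.1, trend, R 4.3.3) for genes with a mean of at least 1, with Benjamini-Hochberg adjustment over all genes tested and a threshold of 0.05. Fold changes of low genes are understated on this scale. The search and the fits were first tested on simulated data. Named genes are all listed members, the listed genes of 3 pathway lists, the 2 most abundant genes of each marker list, and the 3 genes most like each member with a mean of at least 10. For 1 gene of the marker lists no result is reported here. The members and lists were chosen with earlier results of these data known. Gene places and sequences are from GENCODE M21 (GRCm38). Places were looked up by gene symbol, and the gene identifier agreed for the listed members and the listed further family genes. *Kiss1*, absent from the deposited table, was matched by symbol only. The searches and the exact permutation tests over the 6 libraries were run in Python 3.11.15.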

Additional observations from a re-analysis of the deposited data

How the results depend on the processing

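In the fit over means of 1 to 50, the counts of called genes (0 among the members and in each of the 3 pathway lists) did not change with a pseudocount of 0.5 or 2, no filter on the mean, a minimum mean of 5, voom weights, scaling by summed reads, centring on gene length, or leaving out any 1 library. Over all genes tested, these alternatives called only 0 to 4, so counts of 0 in such short lists could hardly have changed. In the fit over means of up to 400, 0 members were called with any 1 library left out, against 1 in full. *Npy1r* was lost each time, while the calls over all 7989 genes fell from 87 to between 6 and 26. Over all 14 alternatives *Npy1r* stayed below 0, between -0.92 and -0.63, with adjusted p-values from 0.0121 to 0.329. *Npvf* lay between -1.16 and 0.32 when 1 library was left out, against -0.67 in full, and turned to 0.32 without WT b, the library with 7 of its 8 reads. Reads of the 5 members with means of up to 50 were the same under a tolerance 10 times wider. The 208 values under the alternatives were counts of called genes, most of them 0, log2 differences of members, and the check of reads. Counts were compared by size, and log2 differences by direction and side of the threshold. By these rules 194 stayed the same and 14 did not. The 14 all came from leaving out 1 library, and were of *Npy1r*, the count that rests on it, or *Npvf*. No paired analysis was possible because the libraries found from the table carry no replicate number. With 3 libraries a genotype, the genes with a few reads could only have passed with large differences. When the fits were first tested, 14% of changes with a log2 difference of 1 were found over means of 1 to 50. Over means of 1 to 400 it was 24%. At a log2 difference of 2 these values were 85% and 95%. Changes in genes with lower means, such as *Npvf* and *Npy2r*, were not simulated. Not passing therefore does not show equal levels, for *Kiss1r* and *Npff* as well.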
